A study of Homo sapiens with 4 samples.

Results

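DCX, NCAM1, SCN1A, LMO3, HMX2 and LRRC55 are 6 genes of the nervous system whose CPM (read counts scaled by library size) were lower in H9 human embryonic stem cells after knockdown of UPF1. They were chosen by name for that difference, and they are 6 of 15942 genes in the deposited table. All 6 were measured in every library and passed the filter on low counts, which left 15557 genes to test. H9 is an established human embryonic stem cell line, grown here on Matrigel, a basement membrane extract, with E8 supplement. Cells received a small interfering RNA (siRNA) against luciferase (siLuc, the control, which has no human target) or one against UPF1 (siUPF1), with 2 libraries in each group. The table gives both control libraries one name, so they are called control a and control b. The labels' treatment text is shared by all libraries and also describes an siRNA against UPF3A and a series of times after actinomycin D, a transcription inhibitor, without giving a time for any library. The labels do not say whether the libraries of 1 group were grown separately. Spreads and p-values therefore cover only the difference between these libraries, which may be technical.

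UPF1 is an RNA helicase needed for nonsense-mediated decay, the pathway that removes messenger RNAs whose translation ends ahead of an exon junction or far from the end of the transcript. NMD is known to restrain neural differentiation, and levels of its factors fall as neural cells mature. The 6 genes serve different parts of neural biology. DCX (doublecortin) binds microtubules in young migrating neurons, and NCAM1 is an adhesion molecule of the immunoglobulin family that can carry polysialic acid. SCN1A encodes the pore-forming alpha subunit of a neuronal sodium channel, and LRRC55 an auxiliary leucine-rich repeat subunit of BK potassium channels. LMO3 is a LIM-only transcription cofactor, and HMX2 is a homeobox transcription factor of the developing inner ear and hypothalamus.

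The upstream sequences of HMX2 and LMO3 are shown because these 2 transcription regulators share a feature that the other promoters examined lacked: the octamer ATGCAAAT, the sequence that POU factors such as POU5F1 of stem cells are known to bind. The capitals mark the octamer, read on either strand. Both are RefSeq sequences on GRCh38.p14, covering the 250 bases before an annotated transcript start and written 5′ to 3′ on the gene's strand. HMX2 lies on the plus strand at chr10:123147886-123148135, and the LMO3 window, the most upstream of its 5 annotated starts, on the minus strand at chr12:16608215-16608464.
HMX2: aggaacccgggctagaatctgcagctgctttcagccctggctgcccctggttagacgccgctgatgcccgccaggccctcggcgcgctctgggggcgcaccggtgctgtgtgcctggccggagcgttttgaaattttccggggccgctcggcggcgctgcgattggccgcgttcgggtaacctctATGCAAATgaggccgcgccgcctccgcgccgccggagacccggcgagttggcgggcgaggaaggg
LMO3: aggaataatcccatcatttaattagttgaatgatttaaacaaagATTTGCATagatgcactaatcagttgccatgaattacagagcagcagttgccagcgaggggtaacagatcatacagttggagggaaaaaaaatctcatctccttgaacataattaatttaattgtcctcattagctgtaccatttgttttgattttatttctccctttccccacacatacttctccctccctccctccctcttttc
The octamer begins 65 bases before the HMX2 start and 206 bases before this LMO3 start. The RefSeq table held 12 starts for 5 of the 6 genes, and NCAM1 had no entry. The octamer was in 2 of these 12 windows (1 of HMX2 and only 1 of the 5 of LMO3) and in 1.63% of all 35116 windows of the same length. The motifs were chosen after the sequences had been seen. HMX2 and LMO3 differ in base composition, with 31 CpG dinucleotides before the HMX2 start and 1 before this LMO3 start, against a median of 11 CpG over all windows. The CCAAT box (CCAAT on either strand, no overlap with the octamer) was in 4 of the 12 windows (1 each of DCX, HMX2, LMO3 and SCN1A) and in 32.0% of all windows. The homeobox core TAATTA was in 3 of the 12 windows (of DCX and LMO3) and in 4.35% of all windows. The sequences TTCAGCACC and GGACAGC, parts of the element bound by REST, a repressor of neural genes, were in none of the 12 windows, against 0.288% and 4.76% of all windows. These matches describe the letters in the windows.

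Library depth ran from 8887239 to 11200973 counts. UPF1 itself, the siRNA target, stood at 28.7% of its control mean in siUPF1 replicate 1 and at 36.9% in replicate 2. All 10 markers of pluripotent stem cells were above 1 CPM in every library. Their summed level was 1808 to 1920 CPM in controls and 1549 to 1660 CPM after UPF1 siRNA. Of the 10, 6 were called down and 0 up by edgeR, against 9.14% down and 16.8% up of all genes tested. Those shares also stand beside the counts called in the marker lists that follow. Marker calls are given at 1 setting only (edgeR adjusted p of 0.05), and several were near that threshold. EdgeR adjusted p was 0.0229 for NANOG, 0.0228 for SOX2 and 0.0212 for ZFP42, but 2.59e-12 for GDF3. Among genes of the lists below it was 0.0357 for RBFOX3, 0.0307 for TUBB3, 0.033 for SYT1 and 0.0244 for FOXD3, but 7.27e-11 for NEFL. Neuron markers in the table, 8 of 10 listed, summed to 369 and 373 CPM in the controls and to 380 and 373 CPM in siUPF1 replicates 1 and 2, with 3 called up (SNAP25, NEFL and SYP) and 3 down (RBFOX3, TUBB3 and SYT1). Neural crest markers, 6 of 7 listed, summed to 99.2 and 104 CPM in the controls and to 123 and 130 CPM after UPF1 siRNA. NGFR and PAX3 were called up and FOXD3 down, and PAX3 was low, at 1.58 and 2.10 CPM in controls a and b. NGFR alone went from 37.9 and 46.1 CPM in controls a and b to 73.6 and 71.5 CPM in siUPF1 replicates 1 and 2. Neural progenitor markers, 5 of 8 listed, summed to 371 and 353 CPM in the controls and to 383 and 346 CPM after UPF1 siRNA. Most of these sums was NES alone, at 346 and 325 CPM in the controls and 354 and 323 CPM after UPF1 siRNA. PAX6 was at 5.09 and 5.79 CPM and SOX1 at 4.98 and 4.99 CPM in controls a and b. LIX1 was called up and FABP7 down. Endoderm markers, 3 of 7 listed, summed to 24.1 and 22.7 CPM in the controls and to 44.4 and 33.1 CPM after it, with CER1 and CXCR4 up and FOXA2 down. The part of these marker changes in the values of the 6 genes was not tested. In bulk RNA, fewer cells of a type and less RNA per cell cannot be told apart.

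The structural neural genes DCX and NCAM1 were the most abundant of the 6 by counts. DCX stood at 55.6 and 62.3 CPM in controls a and b and at 22.8 and 31.4 CPM in siUPF1 replicates 1 and 2. The 2 groups did not overlap, and replicate 1 was the lower. The group means were 58.9 ± 4.74 and 27.1 ± 6.04 CPM (SD, n = 2), a log2 fold change of -1.11 (SE 0.10). NCAM1 stood at 57.7 and 61.6 CPM in controls a and b and at 30.2 and 39.7 CPM in siUPF1 replicates 1 and 2. Its controls were close together, and its siUPF1 libraries were apart from them and from each other. Its means were 59.6 ± 2.73 and 34.97 ± 6.73 CPM (SD, n = 2), a log2 fold change of -0.76 (SE 0.09), the smallest of the 6.

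The channel genes SCN1A and LRRC55 were less abundant and differed more between the groups. SCN1A stood at 12.9 and 11.6 CPM in controls a and b and at 2.30 and 4.90 CPM in siUPF1 replicates 1 and 2, from raw counts of 114, 116, 23 and 55. It had the fewest counts of the 6 and the siUPF1 value of replicate 1 was under that of replicate 2 by more than 2-fold. The means were 12.2 ± 0.937 and 3.6 ± 1.84 CPM (SD, n = 2), a log2 fold change of -1.73 (SE 0.21). LRRC55 stood at 25 and 26.8 CPM in the controls and at 6.80 and 8.73 CPM in siUPF1 replicates 1 and 2. Its siUPF1 libraries were the closest together of the 6 in ratio. The means were 25.9 ± 1.3 and 7.77 ± 1.36 CPM (SD, n = 2), a log2 fold change of -1.73 (SE 0.16).

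The transcription regulators LMO3 and HMX2 fell in the same range as the channel genes. LMO3 stood at 39.7 and 36.4 CPM in controls a and b and at 9.20 and 13.8 CPM in siUPF1 replicates 1 and 2. The groups were well apart, with means of 38.1 ± 2.33 and 11.5 ± 3.26 CPM (SD, n = 2) and a log2 fold change of -1.71 (SE 0.13). HMX2 stood at 22.5 and 19.6 CPM in the controls and at 4.40 and 9.09 CPM in siUPF1 replicates 1 and 2, from raw counts of 199, 196, 44 and 102. As for SCN1A, replicate 2 lay more than 2-fold above replicate 1 and still under both controls. The means were 21.0 ± 2.09 and 6.74 ± 3.31 CPM (SD, n = 2), a log2 fold change of -1.61 (SE 0.17).

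These differences between siUPF1 and control chose the genes and are given as a description with no test. For all 6 the siUPF1 group lay under the control group without overlap, which was also so for 31.1% of all genes tested. Of all genes tested, 0.116% had a lower log2 fold change than SCN1A and 1.84% a lower one than NCAM1. The SE comes from a fit that took the spread of every gene from a common trend over genes, so it does not carry the gene's own gap between siUPF1 libraries.

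**Figure D1:**
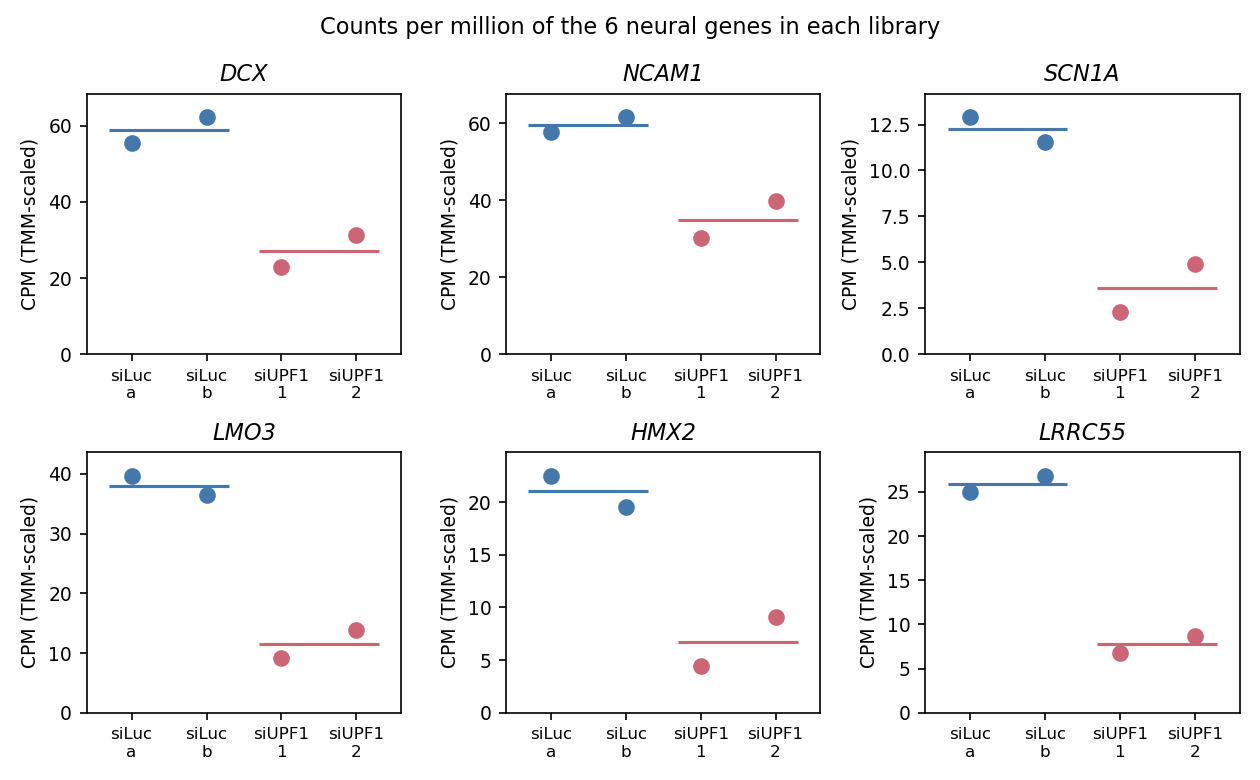
TMM-scaled CPM (y axis, from 0, a scale per panel) of each of the 6 genes in each of the 4 libraries (x axis, controls on the left). Points are libraries and lines are group means. In every panel both siUPF1 points lie below both control points, and replicate 2 lies above replicate 1.

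Levels can be compared between genes per length, as CPM per kilobase of the transcript length implied by the authors' RPKM values. On that scale HMX2 was highest in the controls, at 13.9 and 12.05 CPM per kilobase in a and b. LMO3 at 10.5 and 9.64 and NCAM1 at 10.2 and 10.9 CPM per kilobase followed, and these 2 overlapped. DCX (6.15 and 6.89), LRRC55 (4.64 and 4.98) and SCN1A (1.70 and 1.53) came below them without overlap. In siUPF1 replicates 1 and 2 the order changed, with NCAM1 on top at 5.33 and 7.01 CPM per kilobase. HMX2 (2.71 and 5.60), LMO3 (2.44 and 3.65) and DCX (2.52 and 3.47) overlapped one another, and the range of HMX2 also reached that of NCAM1. LRRC55 (1.26 and 1.62) and SCN1A (0.304 and 0.647) were again lowest and did not overlap with any other of the 6. The read density of the 6 ran from 0.0102 reads per base for SCN1A to 0.0833 for HMX2, against a median of 0.172 over all genes tested.

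The siUPF1 libraries differed from each other in the same direction for all 6 genes. In replicate 1 the 6 genes kept between 18.8% (SCN1A) and 50.7% (NCAM1) of their control mean, and in replicate 2 between 33.7% (LRRC55) and 66.6% (NCAM1). HMX2 kept 20.9% and 43.2%, LMO3 24.2% and 36.3%, DCX 38.7% and 53.2%, and LRRC55 26.2% and 33.7% in replicates 1 and 2. SCN1A and HMX2 were thus the lowest of the 6 in replicate 1, while in replicate 2 both lay above LMO3 and LRRC55. UPF1 was also lower in replicate 1. The part of the knockdown level in these differences was not tested.

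**Figure D2:**
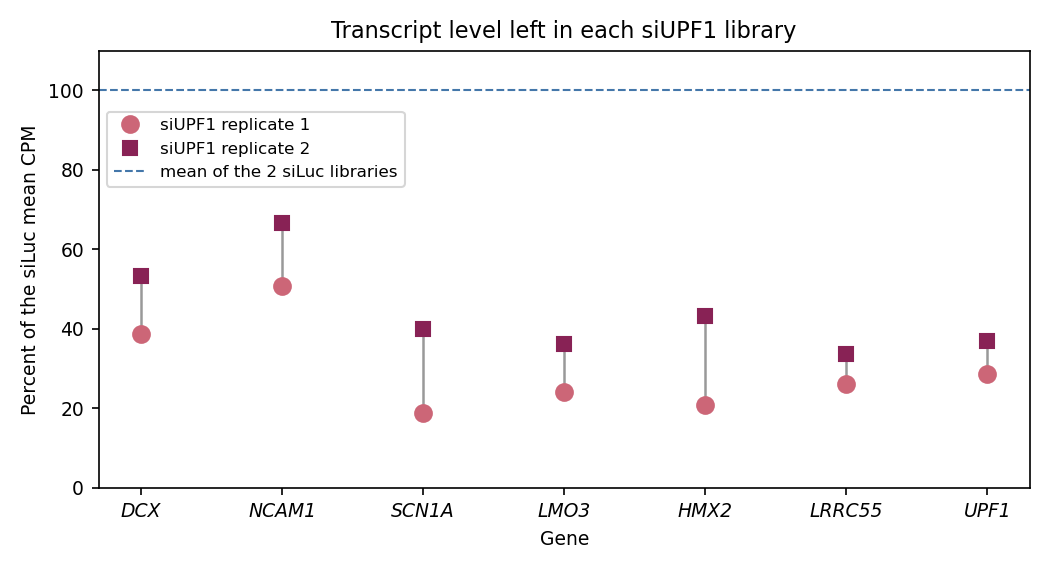
Percent of the control mean CPM (y axis) left in siUPF1 replicate 1 (circles) and replicate 2 (squares) for the 6 genes and UPF1 (x axis), with the control mean as a dashed line at 100. Replicate 1 is lower for every gene, and the gap is widest for SCN1A (18.8% and 40.05%) and HMX2 (20.9% and 43.2%).

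The genes were proposed with this gap known, so its values are a description. The ratio of replicate 2 to replicate 1 was 2.13 for SCN1A (95% Clopper-Pearson interval 1.29 to 3.63) and 2.06 for HMX2 (1.44 to 3.01). It was 1.5 for LMO3 (1.15 to 1.96), 1.37 for DCX (1.16 to 1.63), 1.32 for NCAM1 (1.13 to 1.53) and 1.28 for LRRC55 (0.932 to 1.78). The intervals cover counting error only, and they compare these libraries, not the conditions. For 5 of the 6 genes the interval lay above 1, LRRC55 being the exception, against 11.7% of all genes tested. Replicate 2 was higher for 6 of 6, against 49.7% of all genes tested. The ratio of SCN1A exceeded that of 99.6% of tested genes and that of HMX2 99.5%, or 91.8% for LRRC55, the lowest of the 6. Differences in this ratio among the 6 genes were not tested. Between the controls, b over a ran from 0.868 for HMX2 to 1.12 for DCX, and 0 of 6 intervals excluded 1, against 10.5% of all genes tested.

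**Figure D3:**
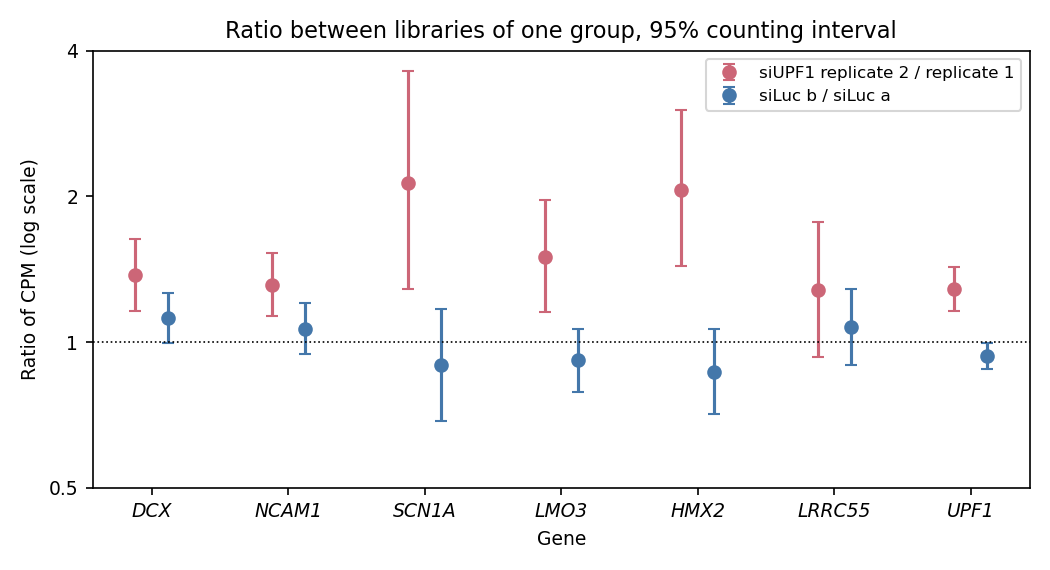
Ratio of CPM between libraries of a group (y axis, log scale) for the 6 genes and UPF1 (x axis), siUPF1 replicate 2 over 1 in red and control b over a in blue. Bars are 95% counting intervals. The siUPF1 ratio is above 1 for every gene and largest for SCN1A (2.13) and HMX2 (2.06), while the control ratios of the 6 genes span 1.

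Other genes lower after UPF1 siRNA tended the same way. Of 1416 other genes called down, 65.1% were higher in replicate 2 than in replicate 1, with a median ratio of 1.06. The counting interval lay above 1 for 25.3% of the 1416 and below 1 for 10.3%. Of the 139 among the 1416 that were lower by at least 2-fold, 77.7% were higher in replicate 2, with a median ratio of 1.3. The interval lay above 1 for 19.4% of the 139 and below 1 for 0%. The ratios of LRRC55, NCAM1 and DCX were near the median of 1.3, and those of SCN1A and HMX2 were above it. Of 394 genes called up by at least 2-fold, 39.1% were higher in replicate 2, with a median ratio of 0.94. UPF1 had a ratio of 1.29 (1.16 to 1.43). These sets were called with the same siUPF1 libraries, so the shares are a description.

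The profiles of the 6 genes over the 4 libraries were compared as centred log2 CPM, by Euclidean distance. SCN1A and HMX2 were the closest pair of the 6, at a distance of 0.108, and NCAM1 and SCN1A the farthest apart, at 1.13. Among 13628 other genes with a mean of at least 5 CPM, the nearest to HMX2 was IL2RB, a cytokine receptor chain, at 0.389, followed by UPF1 at 0.473. The same 2 genes were nearest to SCN1A, at 0.458 and 0.507. No gene of the 13628 was as near to SCN1A or to HMX2 as these 2 were to each other. UPF1 was also the nearest gene to LMO3, at 0.194, ahead of the noncoding gene LOC101926975 at 0.327, and the second nearest to LRRC55, at 0.177, after the dipeptidase gene DPEP1 at 0.151. The profile of DCX was nearest to MMRN2 (0.113), a matrix glycoprotein gene, and to ASTN1 (0.117), which encodes a neuronal adhesion protein of migrating neurons. NCAM1 was nearest to SUSD2 (0.0462) and the chloride channel gene ANO1 (0.0521), and 609 genes lay within a distance of 0.5 of it, against 148 for DCX and 1 for SCN1A. With 4 libraries the profile is mostly the size of the fall and the gap between the siUPF1 libraries. The 6 genes were chosen for the fall and proposed with the gap known, so distances among them are a description. The distances do not carry counting error, and SCN1A had only 23 and 55 counts in siUPF1 replicates 1 and 2.

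Close relatives of the 6 genes went both ways. Of 21 relatives listed, 10 were tested; the rest are not analysed here. By edgeR's quasi-likelihood test, with Benjamini-Hochberg adjusted p-values over all genes and a threshold of 0.05, 4 rose, 2 fell and 4 did not pass, against 16.8% up and 9.14% down of all genes tested. Like the SE, this test took each gene's spread from the common trend, so its very small p-values rest on that trend. Among sodium channel alpha subunits, SCN4A, the skeletal muscle channel gene, rose from 45.0 ± 3.8 to 84.5 ± 7.47 CPM (SD, n = 2), a log2 fold change of 0.91 (SE 0.08, edgeR adjusted p = 6.08e-26). With the read density trend removed, the edgeR adjusted p of SCN4A was 0.000101. SCN8A, a neuronal channel gene, rose by 0.54 (SE 0.07). SCN2A, another neuronal one, stood at 13.8 and 12.7 CPM in the controls and 17.3 CPM in each siUPF1 library, a log2 fold change of 0.39 (SE 0.15, edgeR adjusted p = 0.0428). That call was lost without any 1 of the 4 libraries, at adjusted p of 0.148 and 0.327 without control a and b and of 0.0518 and 0.0642 without siUPF1 replicate 1 and 2. It was also lost with library totals (0.0557), limma-voom (0.052), the read density trend removed (0.129) and DESeq2 (0.281). SCN9A, a channel gene of pain-sensing neurons, stood at -0.02 (SE 0.12) and did not pass.

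Of the other relatives, the doublecortin-like kinase gene DCLK1 rose by 0.26 (SE 0.07, edgeR adjusted p = 0.00215), a call lost without control a (0.213) or siUPF1 replicate 1 (0.099), or with DESeq2 (0.0576). DCLK3 stood at -0.49 (SE 0.21) and did not pass (edgeR adjusted p = 0.0622), but did with the read density trend removed (0.0341). LMO4 fell by 0.23 on the log2 scale (SE 0.08, edgeR adjusted p = 0.0109), a smaller value than that of LMO3 and one lost without control a (0.279) or with DESeq2 (0.12). LMO2, a blood cell cofactor gene, stood at -0.28 (SE 0.19) and LRRC26, which like LRRC55 encodes a BK channel auxiliary subunit, at 0.37 (SE 0.37), and neither passed. Differences between a relative and the gene it was listed with were not tested.

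Genes next to the 6 on their chromosomes were examined in the same fit. The 6 genes lie on chromosomes X (DCX), 11 (NCAM1 and LRRC55), 2 (SCN1A), 12 (LMO3) and 10 (HMX2). Of the 24 tested genes that are the nearest 2 on either side in RefSeq order, 0 rose and 3 fell by that edgeR test, and 21 did not pass it, against 16.8% up and 9.14% down of all genes tested. Their median was -0.08 on the log2 scale, against -0.01 over all genes tested. The apelin receptor gene APLNR, beside LRRC55, had the lowest value. APLNR stood at 5.09 and 4.79 CPM in the controls and at 0.400 and 1.96 CPM in siUPF1 replicates 1 and 2, a log2 fold change of -2.0 (SE 0.31, edgeR adjusted p = 2.76e-09), but DESeq2 gave an adjusted p of 0.155. On either side of HMX2, the metabolic enzyme gene ACADSB (-0.25, SE 0.08) and the spindle checkpoint gene BUB3 (-0.22, SE 0.07) fell slightly. The ACADSB call was lost without control b (edgeR adjusted p = 0.239) or siUPF1 replicate 1 (0.0509), and the BUB3 call without control a (0.148), control b (0.0995) or siUPF1 replicate 2 (0.12). DESeq2 gave adjusted p of 0.115 for ACADSB and 0.0799 for BUB3. SCN9A, beside SCN1A, is given above. TTC21B, a cilium gene, and B3GALT1, a glycosyltransferase gene, also beside SCN1A, were at -0.16 (SE 0.07) and -0.27 (SE 0.12) and did not pass, but did with the read density trend removed (edgeR adjusted p = 0.00886 and 0.0176). LHFPL1, beside DCX, stood at -0.20 (SE 0.18) and passed only without siUPF1 replicate 2 (0.0473). In RefSeq, MGST1, a detoxifying enzyme gene, overlaps LMO3, and the sources used here do not say whether counting used strand. MGST1 stood at -0.10 (SE 0.08) and did not pass.

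**Figure D4:**
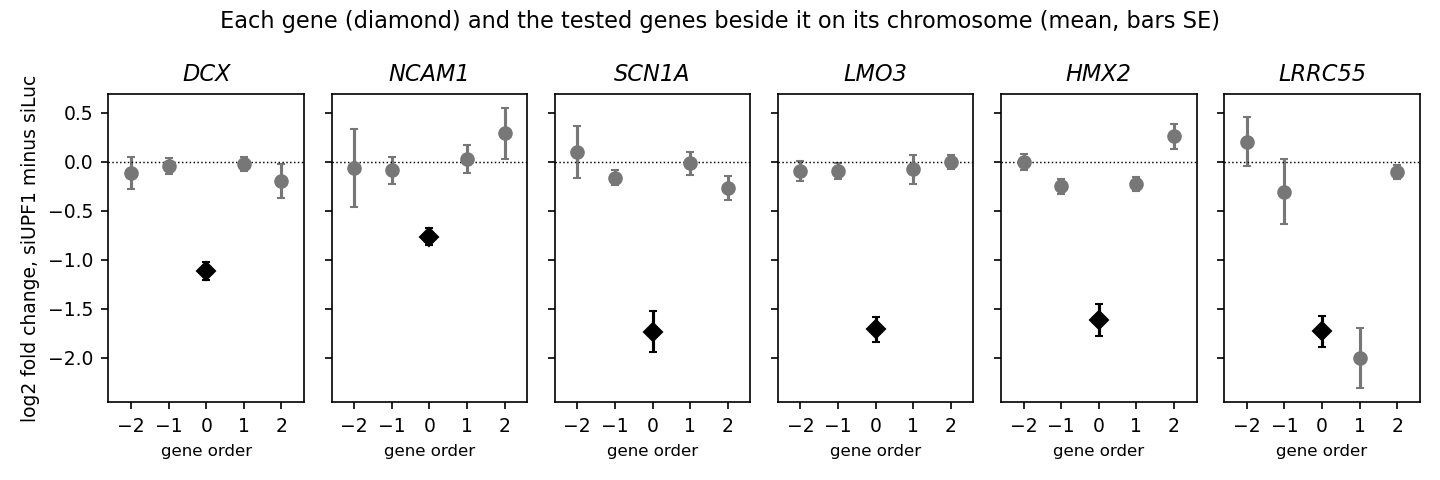
Log2 fold change, siUPF1 minus control (y axis), of each of the 6 genes (diamonds, position 0) and of the nearest 2 tested genes on either side in RefSeq order (circles, x axis in gene order). Bars are SE. Neighbours lie between -0.30 and 0.29 except APLNR beside LRRC55, at -2.0.

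The 6 gene models had no single feature in common. The model taken per gene in GENCODE release 29 was the transcript with the longest coding sequence. Its 3′ UTR was 7911 nt for DCX, 4240 nt for LRRC55 and 3027 nt for NCAM1. These 3 were over the upper quartile of 2255 nt among 13470 coding genes matched. The 3′ UTR was 2088 nt for SCN1A, 552 nt for HMX2 and 180 nt for LMO3. The LMO3 model is shorter than the transcript length of 3779 nt that the authors' values imply, so its UTR may be longer in the counted models. Transcripts annotated as targets of nonsense-mediated decay were 8 for LMO3, 5 for SCN1A and 1 for NCAM1, and none for the other 3, while 41.0% of the matched genes had at least 1. The genes ran from 2551 nt of genome for HMX2 to 317190 nt for NCAM1. Exons ran from 2 for HMX2 and LRRC55 to 28 for SCN1A.

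Beyond the 6 genes, other neural genes moved in both directions. Over 10 lists of neural genes grouped by role, with the 6 left out, 178 of 262 genes listed were tested. Of these 178, 54 rose and 41 fell by that edgeR test, and 83 did not pass it. That is 30.3% up and 23.0% down, against 16.8% up and 9.14% down of all genes tested, and the median log2 fold change was 0.01 against -0.01. The counts fell to 29 up and 15 down with DESeq2, 32 and 18 without control a, and 42 and 25 without control b. Of all calls, 64.8% were up, or 51.2% with the trend of each library on read density removed, where 40 of the list genes rose and 42 fell. Shares in the lists are of genes tested, and some that rose were low in the controls. STMN4 stood at 0.226 and 0.599 CPM and LHX8 at 0.679 and 0.798 CPM in controls a and b.

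**Figure D5:**
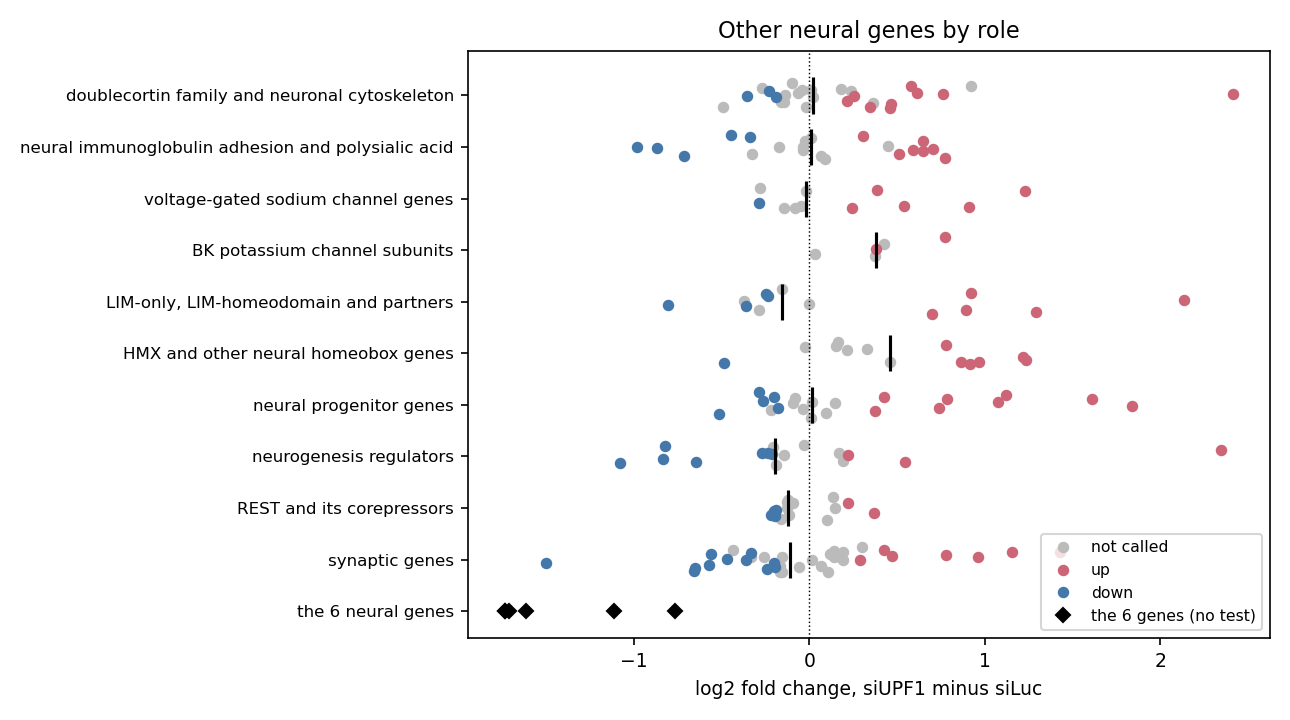
Log2 fold change, siUPF1 minus control (x axis), of each tested gene in 10 lists of other neural genes (y axis), coloured by call (red up, blue down, grey not called, edgeR adjusted p of 0.05), with black lines at list medians. The 6 genes (diamonds, no test) lie between -1.73 and -0.76, and most list genes lie to their right.

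Genes with roles like those of DCX, in the neuronal cytoskeleton, included 9 that rose, 3 that fell and 15 that did not pass of 27. Here and in each list below the counts stand against 16.8% up and 9.14% down of all genes tested. The share up was near that level for synaptic genes (19.4%), neurogenesis regulators (18.8%) and REST with its corepressors (13.3%). The share down was near it for cytoskeleton (11.1%), sodium channel (9.09%) and neural homeobox genes (7.69%). MAP1A, a microtubule-associated protein gene, rose from 36.8 ± 3.62 to 62.4 ± 7.88 CPM (SD, n = 2), a log2 fold change of 0.76 (SE 0.09, edgeR adjusted p = 6.98e-16). The neurofilament gene NEFL rose by 0.58 (SE 0.08). Among neural adhesion genes and ST8SIA genes, whose enzymes add sialic acid, 7 rose, 5 fell and 9 did not pass of 21. CNTN1, an axonal adhesion gene of the immunoglobulin family, fell from 49.6 ± 4.67 to 25.1 ± 0.605 CPM (SD, n = 2), a log2 fold change of -0.98 (SE 0.10, edgeR adjusted p = 3.85e-20). ALCAM, another adhesion gene of that family, rose by 0.65 (SE 0.07).

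Of 11 genes of voltage-gated sodium channels and their partners, 5 rose, 1 fell and 5 did not pass, with SCN4A and SCN8A as above. BK channel subunit genes had 2 that rose and 3 that did not pass of 5. The accessory subunit gene KCNMB3 rose by 0.78 (SE 0.11). The pore gene KCNMA1 rose by 0.38 (SE 0.12), with an edgeR adjusted p of 0.00662 that became 0.425 without control a and 0.0912 with the read density trend removed, and 0.152 with DESeq2.

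LIM-domain regulators and partners split into 5 that rose, 4 that fell and 4 that did not pass of 13. LDB2, an adaptor that binds LIM domains such as those of LMO3, fell from 63.0 ± 0.800 to 36.0 ± 3.58 CPM (SD, n = 2), a log2 fold change of -0.80 (SE 0.09, edgeR adjusted p = 1.01e-17). ISL2, a motor neuron factor gene, rose from 1.58 ± 0.159 to 7.01 ± 0.292 CPM (SD, n = 2), a log2 fold change of 2.13 (SE 0.28). Of 35 homeobox genes of neural development listed, the class of HMX2, 13 were tested. Of these 13, 6 rose, 1 fell and 6 did not pass. VAX1, a factor gene of the ventral forebrain, rose by 1.22 (SE 0.21) and IRX2 by 0.78 (SE 0.09).

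Neural progenitor genes had 8 that rose, 5 that fell and 8 that did not pass of 21, with SOX3 at 1.07 (SE 0.10) and DACH1, which rose from 3.28 ± 0.158 to 10.05 ± 0.224 CPM (SD, n = 2). Neurogenesis regulators had 3 that rose, 7 that fell and 6 that did not pass of 16 tested, from 38 listed. INSM1, a zinc finger gene of newborn neurons, rose from 1.92 ± 0.170 to 9.78 ± 1.87 CPM (SD, n = 2), a log2 fold change of 2.34 (SE 0.25, edgeR adjusted p = 1.62e-18), and the POU factor gene POU3F1 fell by 0.65 on the log2 scale (SE 0.09). Synaptic genes had 7 that rose, 11 that fell and 18 that did not pass of 36. STX1A, a membrane fusion gene, rose by 0.96 (SE 0.15), and NLGN3, a synaptic adhesion gene, fell by 0.57 on the log2 scale (SE 0.09). The repressor REST and its corepressors had 2 that rose, 4 that fell and 9 that did not pass of 15. The phosphatase gene CTDSP1 rose by 0.37 (SE 0.09), and the demethylase gene KDM1A fell by 0.22 on the log2 scale (SE 0.07), with an edgeR adjusted p of 0.0121 that became 0.328 without control a 0.0878 without siUPF1 replicate 2 and 0.0655 with DESeq2.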

How the data were processed

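RNA of H9 cells was sequenced in 4 libraries, 2 siLuc and 2 siUPF1. The authors deposited whole-number read counts per gene, with no normalization, per the file headers. The RPKM values that the authors deposited for the siUPF1 libraries served only to derive a transcript length for each gene (counts over RPKM and library total). The 2 control RPKM columns share a name and were not used. STAR, DESeq2 and hg19 are named in the submitters' processing notes, without versions or roles, and the sources used here do not give the use of strand.

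Counts were tested with edgeR 4.0.16 in R 4.3.3 (glmQLFit and glmQLFTest, two-sided, TMM, filterByExpr, Benjamini-Hochberg adjustment at 0.05 over 15557 genes, 385 left out). The fit took each gene's spread from the common trend (biological coefficient of variation 4.47%). CPM values are TMM-scaled. Intervals on ratios are 95% Clopper-Pearson and cover counting error only. Alternatives were RLE factors, library totals, DESeq2 1.42.0, voom in limma 3.58.1, other filters, an adjusted p of 0.1, each library left out, and removal of the trend on read density (loess, span 0.3).

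The 6 genes and the lists were chosen with earlier results of these data known. Named genes were the 6, UPF1, their relatives, the 2 nearest profiles (mean of at least 5 CPM) and the 2 list members with the smallest p (mean of at least 1 CPM). The values of 1 relative are not reported here. Chromosome neighbours were added after the data were seen. RefSeq tables matched 15718 table genes by accession, and GENCODE models matched 96.6% of coding genes tested.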

Additional observations from a re-analysis of the deposited data

How the results depend on the processing

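The log2 fold changes of the 6 genes stayed negative in all 66 values under alternatives. The genes were chosen for this direction, and both siUPF1 values lay under both control values for all 6. The sign was therefore set in advance, and only the sizes are informative. With siUPF1 replicate 1 or 2 left out the log2 fold changes were -1.31 and -2.40 for SCN1A, -1.21 and -2.25 for HMX2, -1.46 and -2.04 for LMO3, -1.57 and -1.93 for LRRC55, -0.91 and -1.37 for DCX, and -0.59 and -0.98 for NCAM1. Since 1 library then stands alone, it is assumed to vary like the other group. The replicate ratios stayed inside their counting intervals under library totals and RLE factors. Of the whole table, 2613 genes were called up and 1422 down. DESeq2 called 1280 and 467, and leaving out a library gave 1444 to 2764 up and 552 to 1522 down, the lowest without control a. List genes called numbered 54 up and 41 down, 29 and 15 with DESeq2, and 32 to 50 up and 18 to 40 down with a library left out. Of 240 counts for single lists under alternatives, 61 moved over 1.5 times. Of 641 values for named genes other than the 6, 31 lost a call, 4 gained one and 0 reversed one. Very small edgeR p-values were larger with the read density trend removed, though still under the threshold. Adjusted p was then 7.18e-05 for CNTN1, 0.000142 for LDB2, 0.000481 for MAP1A and 0.000894 for INSM1. No paired analysis was possible because both control columns carry one name and no replicate number. SCN1A, with 23 counts in siUPF1 replicate 1, is the gene whose precision depth limits most among the 6.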

Other observations

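Synaptic genes, as a list, were higher in siUPF1 replicate 2 than in replicate 1 for 30 of 36 tested members, against 49.7% of all genes tested, LIM-domain genes and partners for 11 of 13, neural homeobox genes for 10 of 13, and neurogenesis regulators for 11 of 16. Neuronal cytoskeleton genes were so for 10 of 27 and neural progenitor genes for 10 of 21. Over all 10 lists the count was 112 of 178. These are values of 2 libraries, with no test.

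The transcript length implied by the authors' RPKM values differed slightly between the siUPF1 libraries for some of the 6 genes. The ratio of replicate 2 to replicate 1 was 1.02 for LMO3, which has 10 transcripts in the table, and 1.01 for DCX and 1.002 for NCAM1, which have 5 each. It was 0.999 for HMX2 and LRRC55, which have 1 transcript each, and for SCN1A, which has 4. The length of a gene with 1 transcript is fixed, so 0.999 stands for no difference on this scale.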
